A study of Rattus norvegicus with 30 samples.

Results

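Primary rat hepatocytes kept for 48 h in 300 µM phenobarbital were compared with vehicle wells harvested at the same time. The comparison used every array of those 2 groups, 5 and 5, which is 10 of the 30 arrays of the series. They were commercial frozen cells of male Sprague Dawley rats, plated on collagen under a Matrigel overlay. All wells were dosed on day 3 of culture, and RNA was taken 24 h or 48 h later. The series has 6 groups of 5 wells: 3000 µM, 300 µM and vehicle at each of the 2 times. The vehicle is called water in some label fields and culture media in another, and it is written as vehicle here. The labels describe the 5 wells of a group as independent cultures and number no animals, so p-values measure the spread between wells only.

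Phenobarbital is a barbiturate and the classical inducer of drug metabolism in liver. It activates the constitutive androstane receptor (CAR, gene Nr1i3) through a signalling route rather than by binding it, and at higher exposure it also engages the pregnane X receptor (PXR, gene Nr1i2). Both receptors pair with the retinoid X receptor and bind repeats of an AGTTCA-like sequence, and their best known targets are the CYP2B, CYP2C and CYP3A cytochromes P450. P450 enzymes oxidise drugs and steroids, take electrons from the reductase Por, and carry heme, whose synthesis is limited by Alas1 in liver.

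The sequences before the start sites of the CYP2B and CYP3A genes are shown because these genes are the textbook targets of the drug, and because 1 array probe set reads Cyp2b1 and Cyp2b2 together. Each is the 250 bases before the annotated start in RefSeq on GRCr8, 5′ to 3′ on the gene's strand. Capitals mark each copy of TGAACT, the reverse complement of AGTTCA, in a direct repeat spaced by 3 bases. The intervals are chr1:90645869-90646118 (plus strand, Cyp2b1), chr1:90722031-90722280 (plus strand, Cyp2b2), chr12:14343858-14344107 (minus strand, Cyp3a2) and chr12:14398804-14399053 (minus strand, Cyp3a23-3a1).
Cyp2b1: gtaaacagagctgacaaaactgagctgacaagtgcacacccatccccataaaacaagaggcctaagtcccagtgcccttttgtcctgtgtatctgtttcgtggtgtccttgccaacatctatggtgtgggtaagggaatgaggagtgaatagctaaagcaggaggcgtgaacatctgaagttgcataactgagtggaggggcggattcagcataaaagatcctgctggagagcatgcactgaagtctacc
Cyp2b2: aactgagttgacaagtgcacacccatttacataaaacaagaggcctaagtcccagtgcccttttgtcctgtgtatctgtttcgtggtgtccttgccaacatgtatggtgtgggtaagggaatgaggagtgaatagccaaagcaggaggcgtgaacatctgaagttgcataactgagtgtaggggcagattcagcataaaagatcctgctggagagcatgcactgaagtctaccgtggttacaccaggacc
Cyp3a2: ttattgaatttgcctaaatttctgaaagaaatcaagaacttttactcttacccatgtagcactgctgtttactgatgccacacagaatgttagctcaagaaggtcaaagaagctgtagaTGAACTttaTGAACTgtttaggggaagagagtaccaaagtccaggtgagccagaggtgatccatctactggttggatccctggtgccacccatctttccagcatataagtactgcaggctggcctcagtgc
Cyp3a23-3a1: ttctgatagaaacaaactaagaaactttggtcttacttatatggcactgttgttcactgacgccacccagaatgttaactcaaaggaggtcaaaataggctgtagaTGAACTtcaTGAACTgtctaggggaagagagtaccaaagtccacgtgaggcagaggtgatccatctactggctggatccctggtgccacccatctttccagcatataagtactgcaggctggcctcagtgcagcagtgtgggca
Over 233 aligned bases the Cyp2b1 and Cyp2b2 windows were identical at 225 (96.6%), with 8 substitutions and no gap. The 2 CYP3A windows were identical at 207 of 237 aligned columns (87.3%), with 24 substitutions and 6 gapped columns. The marked repeat lies at -131 to -117 in Cyp3a2 and at -144 to -130 in Cyp3a23-3a1, counted from the base before the start. Searched on both strands as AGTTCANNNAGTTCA, it was found in 2 of 27457 rat promoters of this length (0.00728%), which are these 2 genes. The wider forms AGNTCANNNAGNTCA, which includes the first, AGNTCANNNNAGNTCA and TGANCTNNNNNNAGNTCA were found in 16 (0.0583%), 18 (0.0656%) and 11 (0.0401%) of them. Of 98 genes that were higher at 48 h and have a promoter entry, 1 (Cyp3a2, 1.02%) held the first 2 forms and none the other 2. None of the 81 lower genes held any of the 4. Of 8242 tested genes with a promoter entry, 2 (0.0243%), 3 (0.0364%), 1 (0.0121%) and 2 (0.0243%) held the 4 forms in this order. Cyp3a2 had been chosen for display beforehand, so its match is no test of enrichment. These letters describe a short window only; Cyp2c6v1 is not in the promoter table.

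Signals were read as log2 values of the deposited probe set signals, so a difference of 1 is a factor of 2. Of 31042 probe sets that are not controls, 16596 for 9831 named genes reached the signal level needed for a test. limma found 255 of them changed at 48 h (1.54%; adjusted p under 0.05 after Benjamini-Hochberg adjustment over all tested, the meaning of rose and fell throughout). Of these, 135 were higher (0.813%) and 120 lower (0.723%). Most changes were small: 103 rises and 100 falls were under 1.5-fold, 25 and 15 were between 1.5-fold and 2-fold, and 7 (0.0422%) and 5 (0.0301%) reached 2-fold. The smallest called fold was 1.12 in each direction. The 300 µM wells and the vehicle wells did not overlap for 121 of the rises (89.6%) and 101 of the falls (84.2%); over all tested probe sets this held for 368 higher (2.22%) and 436 lower (2.63%). The rises carried 110 gene symbols and the falls 100, while 12 called probe sets in each direction had no symbol.

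The median array signal lay between 382.8 and 415.6 in the 10 arrays, and arrays of the same group correlated at 0.974 to 0.981. Arrays of the other groups entered the shared estimate of spread, among them 2 that an earlier look at these data had found apart: replicate 4 of 3000 µM at 48 h (r with its group 0.951 to 0.956) and replicate 1 of vehicle at 24 h (0.967 to 0.971). Without these 2 arrays 467 probe sets passed (251 higher, 216 lower). With the array medians centred 124 passed, of which 83 were higher and 41 lower, so that rises made up 66.9% of calls in place of 52.9%. With the 48 h groups alone in the fit 114 passed, 74 higher and 40 lower (64.9% higher). Leaving out replicate 4 of vehicle gave 168, the lowest count of any well left out. The hepatocyte markers Alb, Ttr, Apoa1, Ahsg, Serpina1, Hnf4a and Cps1 were all above the signal level for testing and none changed (log2 differences between -0.12 and 0.08).

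The cytochromes P450 showed the largest rises. A single probe set reads Cyp2b1 together with Cyp2b2, the P450s best known for phenobarbital induction, and it gave 14.36, 14.53, 14.48, 14.56 and 14.72 in the 300 µM wells, against 10.85, 11.18, 10.79, 10.83 and 10.47 in the vehicle wells. Every treated well was more than 3 log2 units above every vehicle well. The difference was 3.71 ± 0.23 (SE), or 13.1-fold, with a limma adjusted p of 3.36e-12, and the 2 genes cannot be told apart on this array. Cyp2c6v1, a CYP2C enzyme abundant in rat liver, read 15.86, 15.90, 15.78, 15.92 and 15.88 with 300 µM, against 13.63, 13.55, 13.71, 13.64 and 13.56 with vehicle. The wells of each group lay within 0.2 of each other and the groups were far apart, a rise of 2.25 ± 0.06 (4.75-fold, limma adjusted p = 7.85e-25).

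Cyp3a2, the male-predominant CYP3A form of rat liver, read 11.014, 10.897, 11.267, 11.004 and 11.330 in treated wells, against 9.883, 9.520, 10.148, 9.836 and 9.524 in vehicle wells. The groups did not overlap, and the rise was 1.32 ± 0.11 (2.5-fold, limma adjusted p = 3.95e-10). Its neighbour Cyp3a23-3a1, which carries the same repeat in its promoter, spanned 16.18 to 16.34 in treated wells and 15.98 to 16.08 in vehicle wells. These wells did not overlap either, but the difference of 0.25 gave a limma adjusted p of 0.368. It passed in 4 alternatives: quantile normalization (limma adjusted p = 0.000524), the compared groups alone (0.00136), array weights (0.0153) and the fit without the 2 arrays apart (5.91e-05). Cyp3a18 (0.30, adjusted p = 0.0864) and Cyp3a9 (0.01) did not pass.

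**Figure D1:**
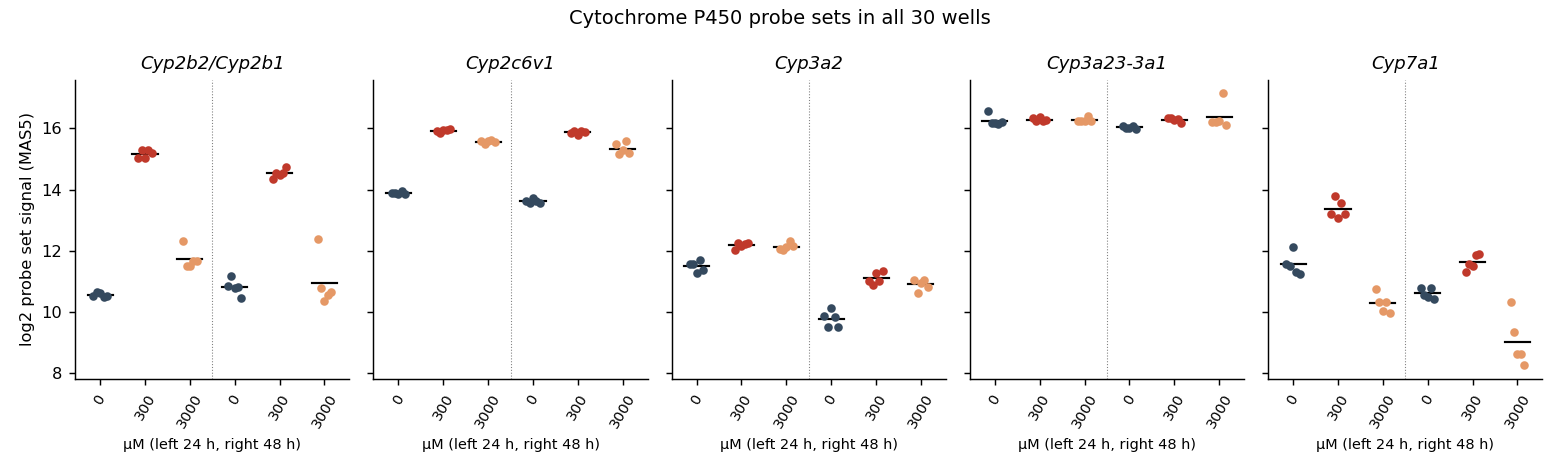
Log2 probe set signal of 5 cytochrome P450 probe sets in all 30 wells; points are wells, bars are group means, and the x axis gives the dose in µM (0 is vehicle) at 24 h on the left and 48 h on the right of each panel. At 48 h the Cyp2b2/Cyp2b1 probe set averaged 10.82 with vehicle, 14.53 at 300 µM and 10.95 at 3000 µM, while Cyp2c6v1 and Cyp3a2 were above vehicle at both doses.

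Among the other P450s the rises were smaller. Cyp2c11, the main male-specific P450 of rat liver, read 14.99, 14.92, 14.83, 14.95 and 15.02 with 300 µM, against 14.33, 14.41, 14.36, 14.44 and 14.32 with vehicle, with no overlap (0.57 ± 0.06, limma adjusted p = 4.17e-07). Cyp2c7 rose by 0.40 and Cyp2b3 by 0.28. The rise of Cyp2d2 by 0.50, a drug-oxidising CYP2D enzyme that belongs to no list, was picked out after its values were seen. Cyp2j4, which oxidises arachidonic acid, fell by 0.28 with overlapping wells. Its relative Cyp2j3, which is on no list and was picked out after its values were seen, fell by 0.36 without overlap (limma adjusted p = 0.00804), and a dim second probe set of it was at -0.05. The call of Cyp2j3 ended with medians centred (0.0629) and with the 48 h groups alone (0.06). Cyp2e1, the ethanol-oxidising P450, had a difference of -0.50 that did not pass (limma adjusted p = 0.0575). Cyp1a1 and Cyp1a2, targets of the aryl hydrocarbon receptor, had differences of 0.40 and 0.23 with limma adjusted p of 0.422 and 0.442. The Cyp1a1 wells did not overlap, at 14.91 to 15.05 with 300 µM and 14.43 to 14.71 with vehicle, while those of Cyp1a2 did. At 48 h the SD of Cyp1a1 was 0.06 with 300 µM, 0.10 with vehicle and 0.71 at 3000 µM. All 6 groups entered the SE of 0.20 behind its adjusted p. The calls of Cyp2b3, Cyp2c7 and Cyp2j4 each ended without at least 1 single well, with limma adjusted p up to 0.123 for Cyp2b3, 0.0657 for Cyp2c7 and 0.12 for Cyp2j4.

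Of the enzymes that serve P450s, Alas1, Por and Cyb5a rose. Alas1, the rate-limiting enzyme of heme synthesis, read 13.76, 13.84, 13.82, 13.76 and 13.77 in treated wells, against 13.19, 13.24, 13.12, 13.22 and 13.08 in vehicle wells. Por, which passes electrons to every microsomal P450, read 13.51, 13.38, 13.63, 13.38 and 13.48 with 300 µM, against 12.98, 13.07, 12.96, 13.06 and 13.01 with vehicle. Neither gene's groups overlapped: Alas1 rose by 0.62 ± 0.11 (limma adjusted p = 0.000532) and Por by 0.46 ± 0.09 (0.00133). Cyb5a, the cytochrome b5 that assists some P450 reactions, was higher by 0.33, and Cyb5r3, its reductase, did not pass (-0.11). Of 28 tested phase I enzymes and partners on a list of CAR and PXR targets, 8 rose and 2 fell. The 2 that fell were Cyp2j4 and the flavin monooxygenase Fmo5 (-0.28). With medians centred 7 rose and none fell, and with the 48 h groups alone 6 rose and 1 fell. Without the 2 arrays apart 10 rose and 3 fell, and with array weights 10 rose and 4 fell. The list's median difference was 0.24, against -0.01 over the 9831 genes, of which 106 rose and 88 fell (1.97% in all). That 1.97% is the share to set beside the count of every list below. The epoxide hydrolase Ephx1, a classical target, had wells that did not overlap and a difference of 0.24, with a limma adjusted p of 0.0887; it passed in the same 4 alternatives as Cyp3a23-3a1.

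Of 20 tested genes of heme synthesis and breakdown, Alas1, the heme oxygenase Hmox1 and the biliverdin reductase Blvrb rose and none fell (2 rises with the 48 h groups alone). Hmox1 read 15.44, 15.46, 15.43, 15.43 and 15.33 with 300 µM, against 14.89, 15.05, 14.88, 14.97 and 15.15 with vehicle, a rise of 0.43 ± 0.10 without overlap (limma adjusted p = 0.0156). Blvrb rose by 0.39. The later enzymes of heme synthesis, Alad (0.17), Urod (0.04), Cpox (0.11) and Fech (0.04), did not pass. The call of Hmox1 ended without vehicle replicate 1 (limma adjusted p = 0.0534) or vehicle replicate 3 (0.0531).

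A few conjugating enzymes rose. Glutathione S-transferases attach glutathione to electrophiles, and 3 of 20 tested rose with none lower. Gsta4, which clears the lipid peroxidation product hydroxynonenal, read 14.93, 14.88, 14.83, 14.83 and 15.06 in treated wells, against 14.34, 14.30, 14.20, 14.27 and 14.28 in vehicle wells. Gstt3, a theta-class enzyme, read 12.28, 12.16, 12.43, 12.30 and 12.33 with 300 µM, against 11.66, 11.41, 11.43, 11.38 and 11.39 with vehicle, where replicate 1 stood above the other 4. In neither gene did the groups overlap, and the rises were 0.63 ± 0.06 (limma adjusted p = 2.31e-09) for Gsta4 and 0.84 ± 0.11 (5.41e-06) for Gstt3. Gstk1, the kappa-class enzyme of mitochondria and peroxisomes, rose by 0.52.

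A probe set shared by Gsta5 and Gsta2, alpha-class transferases, entered no list count because of its 2 symbols. It read 16.14, 16.07, 16.10, 16.17 and 16.09 in treated wells, against 15.18, 15.19, 15.13, 14.98 and 15.14 in vehicle wells. The groups were a whole log2 unit apart on average, with a rise of 0.99 ± 0.06 (1.99-fold, limma adjusted p = 9.01e-13). Other members of the family, among them Gstm1 (0.01), Gstp1 (0.15) and Gsta1 (0.02), did not pass.

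Of 9 tested genes of glucuronidation, Ugt2b1, which glucuronidates steroids and drugs, rose by 0.56 and Ugdh, which makes UDP-glucuronate, by 0.20. The probe set that reads the UGT1A cluster as a whole had a difference of 0.09 (limma adjusted p = 0.81). The estrogen sulfotransferase Sult1e1 was the 1 of 17 tested sulfo- and N-acetyltransferases that rose (0.54), and none fell by its brightest probe set. A dimmer probe set of the N-acetyltransferase Nat1 fell by 0.43 (limma adjusted p = 0.0188), while the brighter one was at -0.25 (0.122). Without the 2 arrays apart, and likewise with array weights, 2 of the 17 rose and 1 fell. The call of Ugdh ended without vehicle replicate 3 (limma adjusted p = 0.0603).

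Carboxylesterases cleave esters of drugs and lipids, and their largest change was a fall. Ces1d, a triacylglycerol hydrolase of liver, read 11.29, 11.55, 11.56, 11.59 and 11.84 with 300 µM, against 12.87, 12.79, 12.84, 12.59 and 12.44 with vehicle. All treated wells were below all vehicle wells, with a difference of -1.14 ± 0.10 (2.21-fold lower, limma adjusted p = 2.31e-09). Of 9 tested esterases and related hydrolases the paraoxonase Pon3 also fell (-0.33) and none rose, although a probe set shared by Ces1f and Cesl1 rose by 0.68 (limma adjusted p = 4.45e-07). Akr1c1, an aldo-keto reductase, was the 1 of 22 carbonyl reductases and aldehyde dehydrogenases that fell (-0.68), and none rose. That is 4.55% of this list, beside 1.97% over all genes. The call of Pon3 ended without 300 µM replicate 2 (limma adjusted p = 0.055).

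Slco1a1, an organic anion uptake carrier of the sinusoidal membrane, read 10.04, 10.23, 10.18, 10.08 and 10.29 in treated wells, against 10.96, 10.74, 10.82, 10.77 and 10.72 in vehicle wells. The groups did not overlap and Slco1a1 fell by 0.64 on the log2 scale (limma adjusted p = 2.76e-05). Of 15 tested uptake carriers, Slc27a2 (-0.33), a fatty acid carrier and acyl-CoA ligase, and Slc27a5 (-0.43), the bile acid ligase, fell as well, and none rose. Slco1a4, the carrier known as a phenobarbital target in rat liver, had a difference of 0.02 (limma adjusted p = 0.979).

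Among 13 efflux pumps and flippases, Abcc2, the canalicular pump for conjugates, rose by 0.29. The flippase Atp8b1 fell by 0.45, and the cholesterol exporter Abca1 fell by 0.28. Abcc3, the basolateral conjugate pump, was at 0.14 and the bile salt pump Abcb11 at 0.13, neither past the test. The calls of Abcc2 and Abca1 ended without at least 1 single well (limma adjusted p up to 0.083 for Abcc2 and 0.158 for Abca1), as did that of Slc27a5 (0.0625).

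Nrf2 is the transcription factor of the antioxidant response. Of its 28 tested targets, 4 rose and none fell, and 26 had a positive difference, with a list median of 0.15. The 4 were the quinone reductase Nqo1 (0.24), Hmox1 (0.43), the glutathione reductase Gsr (0.36) and the sulfiredoxin Srxn1 (0.31). The 2 subunits of glutamate-cysteine ligase, Gclc (0.30, limma adjusted p = 0.0788) and Gclm (0.19, 0.194), did not pass. With medians centred 3 of the 28 rose, and without the 2 arrays apart 9 did. Over all 9831 genes 4620 differences were positive and 5211 negative.

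The receptors themselves did not pass. Nr1i3, the gene of CAR, averaged 11.14 ± 0.16 with 300 µM and 11.18 ± 0.06 with vehicle (SD, n = 5 each), and Nr1i2, the gene of PXR, 11.76 ± 0.15 and 11.84 ± 0.06. Their differences of -0.04 and -0.08 had limma adjusted p of 0.963 and 0.804. Of 22 tested nuclear receptors and partners 1 fell (4.55%, beside 1.97% over all genes). It was the orphan receptor Nr2f2 (-0.28), whose call ended without any of 8 single wells (limma adjusted p up to 0.123 for Nr2f2).

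Several of the largest rises lay outside drug metabolism. Grk5, a kinase that phosphorylates activated G protein-coupled receptors, read 11.20, 11.25, 11.29, 11.05 and 10.93 with 300 µM, against 9.90, 9.56, 9.71, 9.87 and 10.02 with vehicle. The groups were apart by almost 1 log2 unit at their nearest wells, with a rise of 1.34 ± 0.14 (2.52-fold, limma adjusted p = 4.86e-08). Ddc, the decarboxylase that makes dopamine and serotonin, read 12.55, 12.67, 12.66, 12.61 and 12.77 with 300 µM, against 11.74, 11.72, 11.55, 11.82 and 11.59 with vehicle. It rose by 0.97 ± 0.09 without overlap (limma adjusted p = 3.2e-09).

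Cxcl9, a chemokine that attracts T cells, read 12.46, 12.49, 12.59, 12.79 and 12.50 in treated wells, against 11.58, 11.61, 11.66, 11.60 and 11.40 in vehicle wells. The groups did not overlap, the rise was 1.00 ± 0.11 (limma adjusted p = 6.3e-07), and a second probe set of the gene gave 1.07. Tsku, a secreted leucine-rich proteoglycan, averaged 12.68 ± 0.15 with 300 µM and 11.74 ± 0.13 with vehicle (SD, n = 5 each), a rise of 0.94 without overlap. Aass, the enzyme that starts lysine breakdown, read 12.01, 12.07, 11.81, 12.12 and 12.01 with 300 µM, against 11.28, 11.18, 10.81, 11.25 and 10.94 with vehicle, a rise of 0.91 without overlap.

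Uggt1, the enzyme that marks misfolded glycoproteins for refolding, read 12.73, 12.68, 12.76, 12.75 and 12.96 with 300 µM, against 11.80, 11.83, 11.81, 12.03 and 11.65 with vehicle. No treated well reached down to a vehicle well, and Uggt1 rose by 0.95 ± 0.13 (limma adjusted p = 1.47e-05). Further rises without overlap were Lrmda, a leucine-rich repeat protein (0.89), the adaptor Sfn, also called 14-3-3 sigma (0.68), the taurine carrier Slc6a6 (0.67), the kinase Sik3 (0.60; a second probe set at 0.09, adjusted p = 0.782), the matrix-binding receptor Antxr2 (0.59), the nucleotide receptor P2ry2 (0.57) and the kinetochore protein Spc24 (0.56). Srpx, a secreted sushi-repeat protein (0.98), and Cym, the gastric protease chymosin (0.96), also rose, but both averaged below the testing level in the vehicle wells, at 8.25 and 8.30 on the log2 scale. The call of P2ry2 ended without any of 7 single wells (limma adjusted p up to 0.126 for P2ry2).

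**Figure D2:**
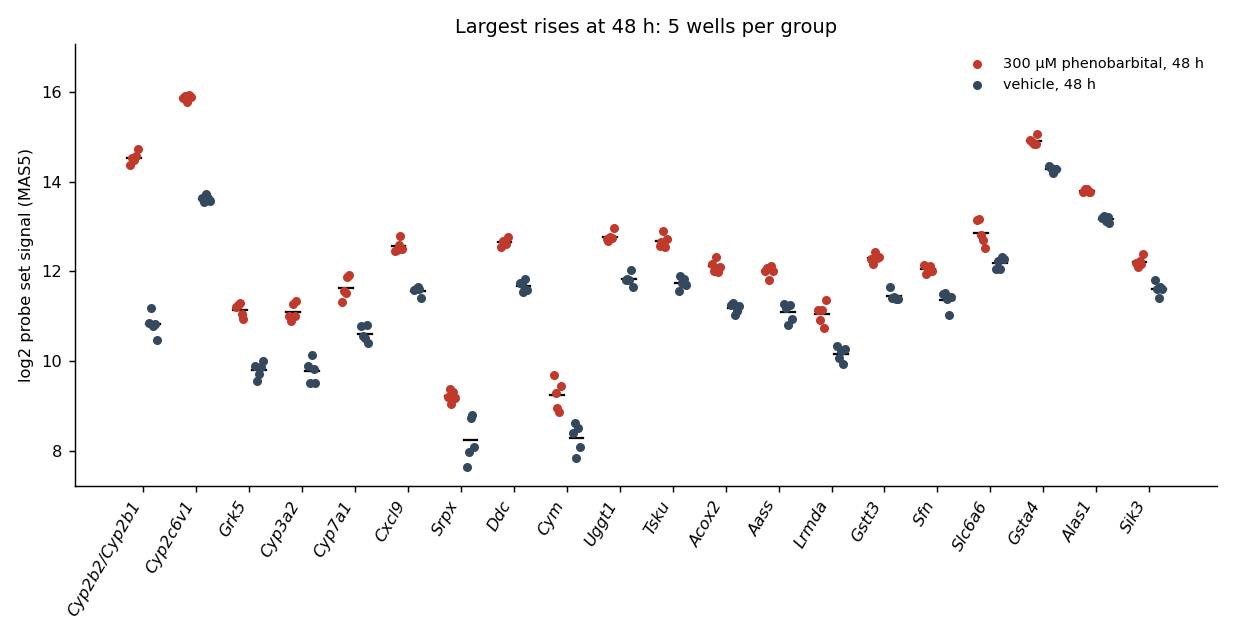
Log2 probe set signal of the shared Cyp2b2/Cyp2b1 probe set and the 19 genes with 1 symbol, locus identifiers left out, that rose most at 48 h with no overlap between groups. Red points are the 5 wells with 300 µM phenobarbital, dark points the 5 vehicle wells, and bars the group means. The difference of group means is 3.71 for Cyp2b2/Cyp2b1, 2.25 for Cyp2c6v1, and 0.60 for Sik3 at the right end.

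PPARalpha is the nuclear receptor that drives fatty acid oxidation in liver. Of its 37 tested targets and oxidation genes 7 fell and 1 rose, 29 had a negative difference, and the list median was -0.16. Over all genes 5211 of 9831 differences were negative. Cyp4a1, which omega-hydroxylates fatty acids and is a classical PPARalpha target, read 11.97, 12.13, 11.87, 12.14 and 12.16 in treated wells, against 13.05, 12.86, 12.96, 12.86 and 12.81 in vehicle wells. The groups did not overlap and Cyp4a1 fell by 0.85 (limma adjusted p = 1e-09). Cyp4a3 fell by 0.52, and a probe set shared by Cyp4a3 and Cyp4a2 by 0.49.

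Angptl4, a secreted inhibitor of lipoprotein lipase, read 12.45, 12.27, 12.38, 12.28 and 12.24 with 300 µM, against 12.81, 13.04, 12.92, 12.76 and 12.83 with vehicle. All its treated wells were lower, and Angptl4 fell by 0.55 (limma adjusted p = 4.4e-06). Acsm3 (-0.81), a medium-chain acyl-CoA synthetase near the testing level, the medium-chain dehydrogenase Acadm (-0.31), the enoyl-CoA isomerase Ech1 (-0.30) and the pyruvate dehydrogenase kinase Pdk4 (-0.37) also fell. Cpt1a, the gate of mitochondrial fatty acid uptake, had a difference of -0.47 that did not pass (limma adjusted p = 0.0685). The calls of Acsm3, Acadm and Ech1 ended without at least 1 single well (limma adjusted p up to 0.0786 for Acsm3, 0.068 for Acadm and 0.102 for Ech1). The list counted 3 falls with medians centred, 4 with the 48 h groups alone and 11 without the 2 arrays apart, with 1 rise each time.

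The member that rose was Acox2, a peroxisomal oxidase that shortens bile acid precursors and branched fatty acids. It read 12.16, 12.01, 12.32, 11.98 and 12.09 with 300 µM, against 11.25, 11.31, 11.03, 11.12 and 11.22 with vehicle. The groups were well apart, with a rise of 0.92 ± 0.09 (limma adjusted p = 9.67e-09).

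Bile acid genes moved in both directions. Cyp7a1, the rate-limiting enzyme of bile acid synthesis, read 11.31, 11.56, 11.52, 11.88 and 11.91 in treated wells, against 10.79, 10.56, 10.51, 10.80 and 10.41 in vehicle wells. The groups did not overlap and the rise was 1.02 ± 0.25 (2.03-fold, limma adjusted p = 0.024). This call for Cyp7a1 was lost without 300 µM replicate 4 (limma adjusted p = 0.0735) or 5 (0.0742) and without vehicle replicate 3 (0.0603) or 5 (0.0669), while its difference stayed between 0.95 and 1.00 there. It was also lost for Cyp7a1 with medians centred (limma adjusted p = 0.0581) and with the 48 h groups alone (0.0967). Of 17 tested members, Slc27a5 and Slc27a2 fell while Acox2 and Cyp7a1 rose. Cyp8b1, which makes cholic acid, had a difference of -0.59 (limma adjusted p = 0.137).

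Lipogenesis (26 tested) and cholesterol synthesis (20 tested) had no called member at 48 h by limma's adjusted p, with 5 and 4 members at an unadjusted p under 0.05, and their medians were 0.01 and 0.03. These counts use 1 probe set per gene: a dimmer probe set of Lpin1, a phosphatidate phosphatase on the lipogenesis list, fell by 0.48 (limma adjusted p = 0.00625), while its brighter one was at -0.34 (0.0591). Without the 2 arrays apart, and likewise with array weights, lipogenesis had 1 rise and 2 falls and cholesterol synthesis 1 of each. Apolipoprotein A-V, Apoa5, which promotes triglyceride clearance, fell by 0.32, and Angptl8, an insulin-induced regulator of lipoprotein lipase, rose by 0.43. The call of Angptl8 ended with medians centred (limma adjusted p = 0.061) and with the 48 h groups alone (0.064).

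In glucose metabolism 3 of 26 tested genes fell and none rose (1 fall with medians centred or with the 48 h groups alone). Txnip, a glucose-induced inhibitor of thioredoxin and glucose uptake, read 11.60, 11.63, 11.55, 11.51 and 11.56 with 300 µM, against 12.24, 12.31, 12.22, 12.26 and 12.22 with vehicle. The wells of each group lay close together and the groups did not overlap, a fall by 0.68 (limma adjusted p = 0.00761). Pfkfb1, which sets the level of a glycolytic activator, fell by 0.26, Pdk4 by 0.37, and Pck1, the gluconeogenic carboxykinase, had a difference of -0.58 that did not pass (limma adjusted p = 0.381). Of 41 urea cycle and amino acid genes, Aass and Ddc rose and the glutamate dehydrogenase Glud1 fell (-0.27). The call of Glud1 ended without 300 µM replicate 5, its lowest well (limma adjusted p = 0.0631).

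Genes set by growth hormone and sex changed in 6 of 21 tested members. Cyp2c11, Cyp2c7, Cyp3a2 and Sult1e1 rose, while Slco1a1 and Ghr, the growth hormone receptor, fell. Ghr read 11.97, 12.02, 12.01, 12.05 and 12.24 with 300 µM, against 12.67, 12.53, 12.61, 12.49 and 12.48 with vehicle. Every treated well was lower, and Ghr fell by 0.50 (limma adjusted p = 0.00046). Igf1, which growth hormone induces in liver, did not pass (-0.14, limma adjusted p = 0.533).

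Acute phase and complement genes gave 3 rises and 1 fall among 32 tested. C-reactive protein, Crp, rose by 0.55 (limma adjusted p = 4.22e-07), with 15.25 ± 0.04 in treated wells and 14.70 ± 0.11 in vehicle wells (SD, n = 5 each). The mannose-binding lectin Mbl2 rose by 0.21 and the siderophore binder Lcn2 by 0.28. Lbp, which binds lipopolysaccharide, fell by 0.36. The calls of Mbl2, Lcn2 and Lbp ended without at least 1 single well (limma adjusted p up to 0.101 for Mbl2, 0.149 for Lcn2 and 0.179 for Lbp).

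Of 30 interferon and chemokine genes Cxcl9 rose and Isg15, a ubiquitin-like protein induced by interferon, fell (6.67%, beside 1.97% over all genes). Isg15 read 9.87, 9.89, 9.04, 10.80 and 10.07 with 300 µM, against 10.91, 10.61, 10.48, 10.70 and 12.09 with vehicle. The groups overlapped, and vehicle replicate 5 stood far above the rest. Its difference of -1.02 ± 0.27 had a limma adjusted p of 0.0479, and without vehicle replicate 5 it was -0.74 with an adjusted p of 0.161. The list's median was -0.11, and Mx2, another interferon target, had a difference of -0.85 (limma adjusted p = 0.0769). RT1-S3, a class I histocompatibility gene, fell by 0.46, and 3 of its 4 probe sets passed.

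Of 34 proteasome genes 3 rose and none fell: the catalytic subunit Psmb5 (0.26) and the ATPases Psmc4 (0.19) and Psmc5 (0.20). The list median was 0.10, and 32 of the 34 differences were positive, as were 26 of 27 for cytosolic ribosomal proteins, none of which passed. Over all genes 4620 of 9831 differences were positive. With medians centred 1 of the 34 passed, and without the 2 arrays apart 7 did. Of 26 chaperone and unfolded protein genes Uggt1 and Ero1a (0.54), the oxidase that drives disulfide formation, rose and none fell, while the chaperone Hspa5 was at 0.09 (limma adjusted p = 0.708). The integrated stress response list had 1 rise among 31 tested, the serine synthesis enzyme Psat1 (0.33). That is 3.23% of the list, near the 1.97% over all genes.

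A list of 36 translocon, oligosaccharyltransferase and signal peptidase genes was drawn up after the values were seen, and 5 of them rose: Ssr4, Serp1, Dad1, Ostc and Krtcap2, by 0.16 to 0.28. None of these 5 passed with the medians centred or with the 48 h groups alone. The calls of Psmc4, Psmc5 and Ero1a also ended without at least 1 single well (limma adjusted p up to 0.106 for Psmc4, 0.127 for Psmc5 and 0.0903 for Ero1a).

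Ccn2, a secreted matricellular protein induced by YAP and TAZ, read 13.76, 13.61, 13.54, 13.60 and 13.13 in treated wells, against 14.06, 14.12, 14.07, 14.22 and 14.33 in vehicle wells. All treated wells were lower, and Ccn2 fell by 0.63 (limma adjusted p = 6.39e-05). On a list of 12 YAP and TAZ targets made after the values were seen, Ccn2, the motin Amotl2 (-0.39) and the LIM protein Ajuba (-0.31) fell, and a second probe set of Ajuba was at 0.02. On a list of 15 glucocorticoid-responsive genes, made likewise, the kinase Sgk1 (-0.61) and Tsc22d3 (-0.30), the leucine zipper protein GILZ, fell. With medians centred 1 member of each of these 2 lists passed, and without the 2 arrays apart 4 did, all lower. Ccn2 was also the 1 changed gene among 24 cytoskeleton and dedifferentiation genes (4.17%, beside 1.97% over all genes). The calls of Amotl2 and Tsc22d3 ended without at least 1 single well (limma adjusted p up to 0.102 for Amotl2 and 0.0994 for Tsc22d3).

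Other large falls without overlap were the transcription factor Klf11 (-0.62; a dimmer probe set at -0.09), the clathrin adaptor partner Synrg (-0.58), the raft protein Flot1 (-0.60), the heparan sulfate proteoglycan Gpc4 (-0.51), the glycosyltransferase B3galnt1 (-0.50), the immunoglobulin-domain protein Ildr2 (-0.49), the sialyltransferase St8sia3 (-0.47), the cyclin-like protein Cnppd1 (-0.45) and the matrix protein Tgfbi (-0.44). The transporter Abca8a (-0.61), the lectin Cd209f (-0.63) and Plekhm2 (-1.11), an adaptor for lysosome transport, lost their calls without some single wells (limma adjusted p up to 0.12 for Abca8a, 0.0917 for Cd209f and 0.115 for Plekhm2). Plekhm2 averaged 7.65 in treated wells, below the testing level. The fall with the largest fold, -1.76, belonged to a probe set without a symbol, at 6.66 in treated wells and 8.42 in vehicle wells, with overlap between the groups.

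**Figure D3:**
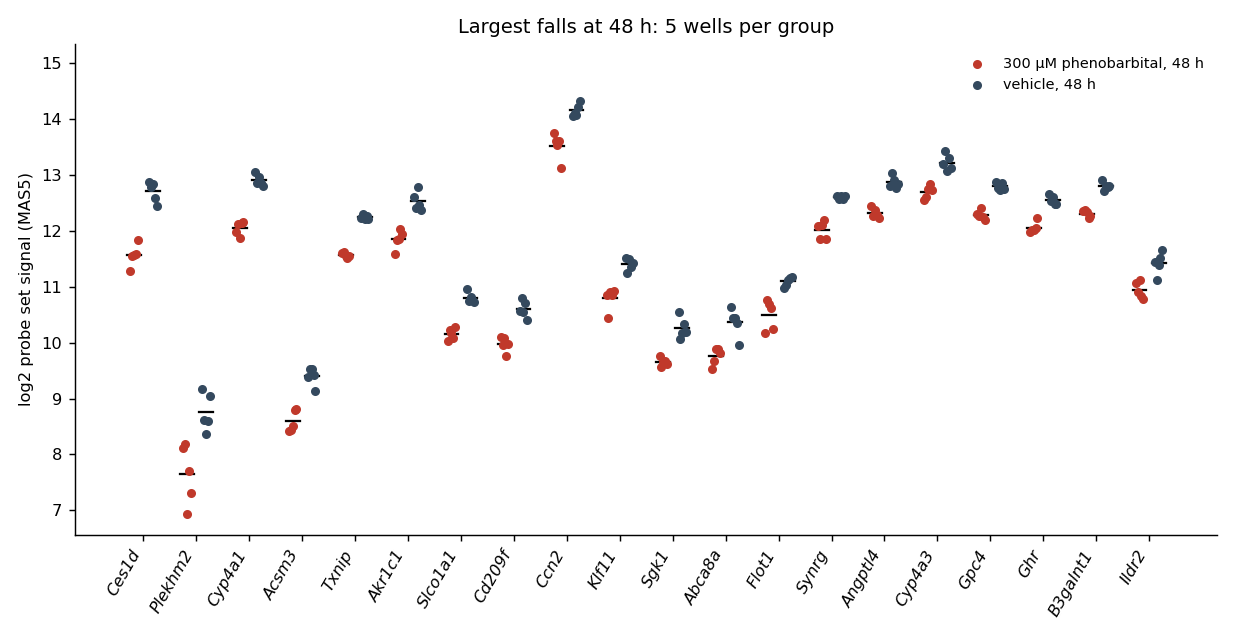
Log2 probe set signal of the 20 genes with 1 symbol, locus identifiers left out, that fell most at 48 h with no overlap between groups. Red points are the 5 wells with 300 µM phenobarbital, dark points the 5 vehicle wells, and bars the group means. The difference is -1.14 for Ces1d at the left end and -0.49 for Ildr2 at the right end.

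No gene of the cell cycle (23 tested), p53 and apoptosis (19), circadian clock (13), respiratory chain (40) or cytosolic ribosome (27) lists changed at 48 h by limma's adjusted p. At an unadjusted p under 0.05 the counts were 1, 5, 2, 5 and 3. Without the 2 arrays apart, and likewise with array weights, 3 of the 19 p53 and apoptosis genes fell, and 1 respiratory chain gene and 1 ribosomal protein gene rose. Single falls were the adhesion protein Cdh1 among 16 periportal genes (-0.33) and coagulation factor IX, F9, among 24 hepatocyte genes (-0.17). These falls are 6.25% and 4.17% of the 2 lists, beside 1.97% over all genes. Both genes lost the call without some single wells (limma adjusted p up to 0.0712 for Cdh1 and 0.102 for F9). Cyp7a1 was the 1 rise among 14 pericentral genes, and the glutamine synthetase Glul, the standard pericentral marker, was at 0.19 (limma adjusted p = 0.388). A dimmer probe set of Tbx3 in that list was higher by 0.65 (limma adjusted p = 0.049), while its brighter one was at 0.17 (0.836).

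Markers of other liver cells were read because an array of a whole well cannot tell fewer cells of a type from less RNA per cell. None of 11 stellate and fibroblast, 14 macrophage, 5 endothelial or 6 lymphocyte markers tested changed by limma's adjusted p (1, 1, 1 and 0 at an unadjusted p under 0.05). Summed signals of these lists were 22920 to 28570 in treated wells and 21810 to 28970 in vehicle wells for stellate cells, and 24540 to 26670 and 22710 to 25680 for macrophages. They were 2326 to 3064 in treated wells and 2201 to 3128 in vehicle wells for endothelium, and 6836 to 8000 and 4938 to 7440 for lymphocytes. All 4 sums overlapped between groups. The 7 cholangiocyte markers summed to 17000 to 17900 in treated wells and 18050 to 19650 in vehicle wells, without overlap. Most of this linear sum was Epcam, which did not pass (-0.14, limma adjusted p = 0.203). Of the 7, the transferase Ggt1 rose (0.43) and the transcription factor Onecut2 fell (-0.37). Below the testing level, treated and vehicle wells averaged 8.32 and 7.75 for Krt19, 7.24 and 6.99 for Spp1, and 3.73 and 3.97 for Krt7. A change in the number of these cells was not tested.

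The defining markers Krt19, Krt7 and Spp1 of cholangiocytes, Pecam1, Stab2, Lyve1 and Vwf of endothelium, Cd3d, Cd3e and Nkg7 of lymphocytes, Cd163 of macrophages, and Col1a2, Pdgfrb, Lrat and Dcn of stellate cells were below the testing level. Epcam, Kdr, Cd68, Clec4f, Csf1r, Cd14, C1qa, C1qb, Col1a1, Col3a1, Acta2 and Des reached it in at least 1 of the 6 groups. With 300 µM and with vehicle, Kdr (8.89 and 9.06), Clec4f (8.84 and 8.77) and Col1a1 (8.94 and 8.87) averaged near that level of 8.58. C1qb averaged below it, at 7.80 and 7.95. The part of these cells in the changes of Cxcl9, Cd209f and Ccn2 was not tested. The calls of Ggt1 and Onecut2 ended without at least 1 single well (limma adjusted p up to 0.128 for Ggt1 and 0.122 for Onecut2).

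**Figure D4:**
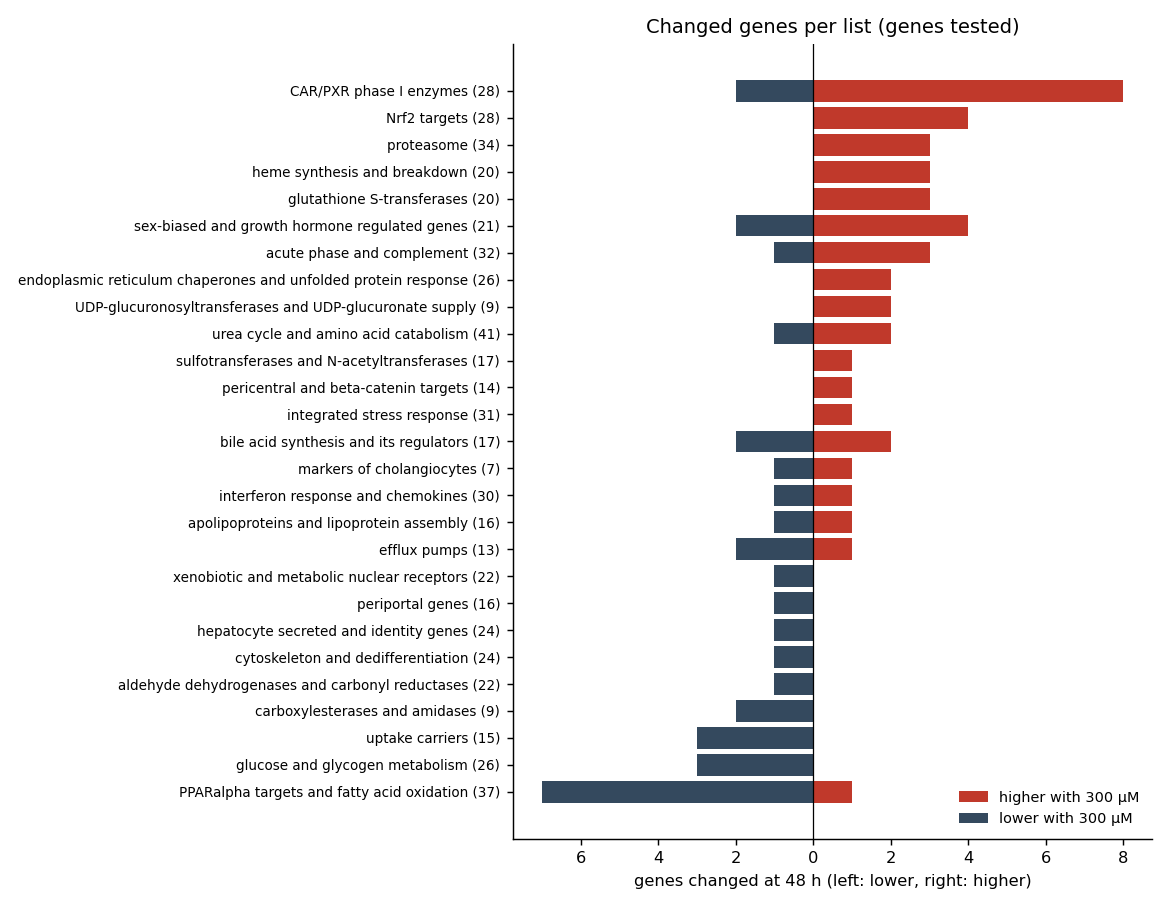
Number of genes changed at 48 h in each gene list with at least 1 change. Red bars to the right are genes higher with 300 µM, dark bars to the left genes lower. The number tested stands in parentheses, and lists share some genes. The translocon, glucocorticoid and YAP lists, made after the values were seen, are not drawn. The CAR/PXR phase I list has 8 rises and 2 falls, and the PPARalpha list 1 rise and 7 falls. Over all 9831 genes 106 rose and 88 fell (1.97%).

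The same dose at 24 h was measured in other wells with their own vehicle wells, so the differences at the 2 times share no array. The calls are not separate, because 1 estimate of spread per probe set, from all 30 arrays, served both times. At 24 h 496 probe sets had changed (2.99%), 285 higher (1.72%) and 211 lower (1.27%). Of the 135 rises at 48 h, 84 were also called higher at 24 h, which is 62.2% of the 48 h rises and 29.5% of the 24 h rises. Of the 120 falls, 54 were called lower at 24 h, which is 45.0% of the 48 h falls and 25.6% of the 24 h falls. No probe set was called in opposite directions. The 24 h difference had the same sign for 130 rises (96.3%) and 116 falls (96.7%), with medians of 0.37 and -0.25 at 24 h beside 0.42 and -0.38 at 48 h. Over all 16596 probe sets the differences at the 2 times had a correlation of 0.261, a description in which probe sets are not independent. With medians centred 226 probe sets passed at 24 h, 152 higher and 74 lower (67.3% higher, against 57.5%).

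A test of the 48 h against the 24 h effect called none of the 16596 probe sets (0%; smallest limma adjusted p 0.16; 1251, or 7.54%, at an unadjusted p under 0.05). Its smallest p belonged to the Gsta5/Gsta2 probe set, with differences of 0.99 at 48 h and 0.53 at 24 h, which passed for the effect of time without the 2 arrays apart (limma adjusted p = 0.00232), with array weights (0.00854) and with the compared groups alone (0.0464). In that last fit the Cyp2b2/Cyp2b1 probe set (3.71 at 48 h and 4.61 at 24 h, limma adjusted p = 0.0056) also passed. So did a probe set of Adh1c, a class I alcohol dehydrogenase (0.12 at 48 h and -0.72 at 24 h, limma adjusted p = 0.0421). In the main fit Adh1c was called lower at 24 h (limma adjusted p = 0.00022) and was not called at 48 h (0.794). Adh1c passed once more without replicate 3 of vehicle at 24 h (limma adjusted p = 0.0412).

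Cyp3a2 differed by 1.32 at 48 h and 0.68 at 24 h (limma adjusted p of the difference 0.43). Its means were 12.18 with 300 µM and 11.50 with vehicle at 24 h, against 11.10 with 300 µM and 9.78 with vehicle at 48 h. Cyp7a1 differed by 1.02 at 48 h and 1.81 at 24 h, Ces1d by -1.14 and -0.54, Ccn2 by -0.63 and -0.86, and Grk5 by 1.34 and 1.30, with none of these pairs past the test. Some 48 h calls had a 24 h difference near 0: Blvrb (0.39 at 48 h and 0.00 at 24 h), Lcn2 (0.28 and -0.11), Isg15 (-1.02 and -0.09), Onecut2 (-0.37 and 0.01) and Abca1 (-0.28 and -0.01).

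**Figure D5:**
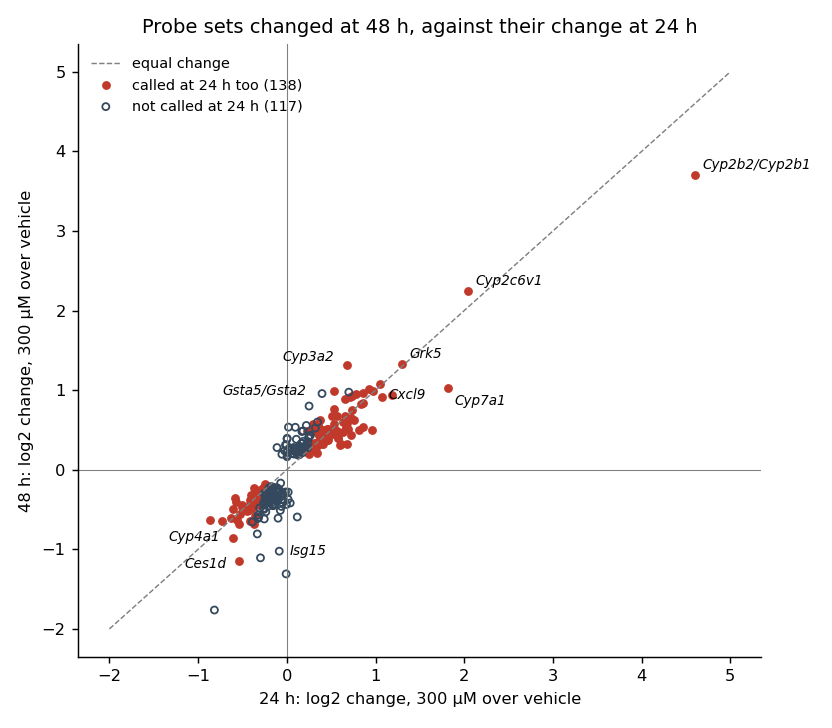
Log2 difference of 300 µM over vehicle at 48 h (y axis) against that at 24 h (x axis) for the 255 probe sets changed at 48 h; filled red points are the 138 also called at 24 h, open points the 117 not called there, and the dashed line marks equal change. Nearly all points lie in the quadrants of equal sign, with Cyp2b2/Cyp2b1 at 3.71 and 4.61 the farthest out.

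The 3000 µM wells of 48 h were set against the same vehicle wells, so the 2 doses share their controls and only each one's own values are given. At 3000 µM 6539 probe sets changed (39.4%), 3232 higher (19.5%) and 3307 lower (19.9%). The Cyp2b2/Cyp2b1 probe set averaged 10.82 ± 0.25 with vehicle, 14.53 ± 0.13 at 300 µM and 10.95 ± 0.83 at 3000 µM (SD, n = 5 each), and the difference of 3000 µM from vehicle was 0.12 (limma adjusted p = 0.706). Cyp2c6v1 differed from vehicle by 2.25 at 300 µM and 1.72 at 3000 µM, and Cyp3a2 by 1.32 and 1.12. Cyp7a1 was above vehicle at 300 µM (1.02) and below it at 3000 µM (-1.57), as were Acox2 (0.92 and -0.54), Ddc (0.97 and -0.33) and Alas1 (0.62 and -0.36). Por differed by 0.46 at 300 µM and -0.13 at 3000 µM, and Grk5 by 1.34 and 0.47. Ces1d differed by -1.14 at 300 µM and -2.04 at 3000 µM, Cyp4a1 by -0.85 and -2.13, and Txnip by -0.68 and -2.37. The 2 doses were not tested against each other.

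Some calls rested on 1 of several probe sets. Of 65 changed genes with at least 2 tested probe sets, 7 had all of them called, and 8 had an uncalled one of the opposite sign (Acbd3, Ajuba, Anxa7, Clic4, Onecut2, Slc35b1, Tsc22d1 and Ube2k, named here after their values were seen). For Slc35b1, a nucleotide carrier of the endoplasmic reticulum, a dim probe set fell by 1.31 with overlapping wells, while its brightest probe set was at 0.18 (limma adjusted p = 0.059). At the edge of the test, Lbp (limma adjusted p = 0.0490) and a probe set of Bbox1, an enzyme of carnitine synthesis (0.0497), were just inside. Lmo4, a LIM-only regulator, and Rtp4, an interferon-induced chaperone (both 0.0504), were just outside. The slightly brighter probe set that stands for Bbox1 was at -0.21 and did not pass (limma adjusted p = 0.452).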

How the data were processed

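Arrays of 30 wells of cultured rat hepatocytes were read on an Affymetrix rat GeneChip. What the authors deposited is a linear intensity for each probe set, made with MAS5 per the submitters' processing notes; the version and scaling target are not given in the sources used here. No detection calls were used.

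Intensities were converted to log2 with nothing added, and 57 control probe sets were left out. The filter kept 16596 probe sets with at least 1 of 6 group means at or above the overall median (signal 384, log2 8.58). A model with 1 mean per group was fitted to all 30 arrays in limma 3.58.1 (R 4.3.3; eBayes with trend and robust estimation, 2-sided, Benjamini-Hochberg adjustment over all probe sets tested, threshold 0.05). The number of arrays, 5 a group, limits the precision. The code was tested on simulated data.

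Of the probe sets that are not controls, 20826 had 1 symbol in the platform annotation, 436 several and 9780 none; 20758 symbols were updated through Entrez IDs, 2 through accessions, and 66 kept as annotated. For a gene with several probe sets, the one with the highest mean stood for it. Named were the 25 largest rises and 25 largest falls among genes with 1 symbol whose wells did not overlap, members of the gene lists, the 10 smallest p-values of the test between times, and the Cyp2b1, Cyp2b2, Cyp2c6v1, Cyp3a2 and Cyp3a23-3a1 probe sets. Genes known only by a locus identifier were counted but left out of the ranking of rises and falls. The members and lists were chosen with earlier results of these data known, and the translocon, glucocorticoid and YAP lists after the values were seen. Alternatives changed the filter, the scaling, the added constant, the arrays in the fit, the moderation and a replicate block. Each well of the groups in a comparison was also left out in turn.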

Additional observations from a re-analysis of the deposited data

Results flagged for a closer look

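In 14 of 210 groups of 5 wells, over 105 probe sets that changed at 48 h (those of the largest rises and falls, of list members and of shared probe sets), 1 well stood apart from the other 4 by more than 0.71 of the group's range, Dixon's limit for 5 values; chance alone gives about 1 in 20, or 10.5 here. Of these, 9 were 300 µM wells. With 300 µM, replicate 5 was highest for Uggt1 at 12.96 (the others 12.68 to 12.76) and for Ghr at 12.24 (11.97 to 12.05). The same well was lowest for Hmox1 at 15.33 (15.43 to 15.46), Gsr at 13.12 (13.32 to 13.38), Glud1 at 14.04 (14.31 to 14.41) and Lbp at 12.52 (12.91 to 12.98). Replicate 3 with 300 µM was highest for P2ry2 at 10.68 (10.36 to 10.45), replicate 2 lowest for Klf11 at 10.44 (10.85 to 10.92), and replicate 4 lowest for Ero1a at 12.835 (13.001 to 13.047).

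With vehicle, replicate 1 was highest for Gstt3 at 11.66 (11.38 to 11.43) and replicate 4 lowest for Sfn at 11.02 (11.40 to 11.52). Replicate 3 was lowest for Krtcap2 at 13.32 (13.55 to 13.64). Replicate 5 was highest for Dad1 at 14.28 (14.10 to 14.15) and for Isg15 at 12.09 (10.48 to 10.91). Among these genes the groups overlapped for Isg15 and Dad1.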

How the results depend on the processing

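The count of 255 probe sets changed at 48 h became 124 with medians centred, 482 (242 higher, 240 lower) with the compared groups alone, 114 with the 48 h groups alone, 467 without the 2 arrays apart and 615 (315 and 300) with array weights, and 168 to 266 without single wells; 159 of the 168 left without vehicle replicate 4 were among the 255. The other filters, quantile normalization, added constants and plain eBayes gave 194 to 379. Of the 255, 94 kept their call in all alternatives and 130 in all leave-one-out fits, and none changed sign. For each comparison only wells of its own groups were left out singly, although the other arrays also set the spread. The 24 h count of 496 became 226 with medians centred and 325 to 444 without single wells. The test between times gave 3 with the compared groups alone, 1 without the 2 arrays apart, 1 with array weights and 0 to 1 without single wells, against 0. The 3000 µM count was 5992 to 6532 without single wells. The causes of these moves were not tested. The running number in the titles forms sets of 6 wells of unstated meaning; as a replicate block it gave 284 (149 higher, 135 lower, 241 shared), and wells of a set did not deviate together (r -0.0368 to 0.0231), so they were not treated as pairs. Changes under 1.5-fold and probe sets near the testing level are the least precise.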
